A study of Mus musculus with 6 samples.

Results

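Fibroblast-like cells in the cardiomyocyte fraction were 144 of the 1072 single-cell wells of that fraction that held 500 or more non-mitochondrial genes, or 13.4% (exact 95% binomial interval 11.4 to 15.6). A well was counted as fibroblast-like when its sum of unique molecular identifiers (UMIs, which count captured transcripts) over Col1a1, Col1a2, Col3a1, Dcn, Postn and Lum was above its sum over the cardiomyocyte genes Tnnt2, Tnni3, Myh6, Actc1 and Tnnc1. Because these values chose the wells, the levels of the 11 genes in them are a description and carry no test.

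The study asked how the age of cardiac fibroblasts affects the maturation of cardiomyocytes. Immature cardiomyocytes (imCMs) from P1 C57BL/6J hearts were plated on fibroblasts grown from neonatal P1 hearts (NF) or adult P56 hearts (AF) of the same strain, and the fibroblasts of both ages had been passaged in culture. After several days of co-culture, the cells were separated by flow cytometry on the dye with which each population had been stained, and only cells with one dye were collected. The cardiomyocyte fraction was loaded on one nanowell chip and the fibroblast fraction on another, and 4 bulk RNA-seq libraries of the cardiomyocyte fraction were made as well. The well report names the source of each well: AFNCM1, AFNCM2 and AFNCM3 for imCMs with AF, NFNCM1, NFNCM2 and NFNCM3 for imCMs with NF, and AF1, AF2, NF1 and NF2 for the fibroblasts. These well names are called Types here, and the sources do not say what their numbers mark or whether Types came from separate cultures. Each chip was 1 library, so Types are given side by side with counting intervals and no test, and the chip, the dye gate and the origin of the cells cannot be told apart. The 2 chips held 2482 wells with counts, 1419 and 1063 of them, and 269 well barcodes occurred on both chips, 25 of them in fibroblast-like wells.

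Cardiac fibroblasts make and remodel the extracellular matrix of the heart, with fibrillar collagens as its main load-bearing proteins and small proteoglycans such as decorin and lumican bound to them. They also secrete chemokines, growth factors and protease inhibitors that act on cardiomyocytes, endothelial cells and immune cells. Fibroblasts of the newborn heart divide and lay down a provisional matrix rich in periostin and fibronectin, and those of the adult heart are largely quiescent.

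Fibroblast-like wells were more frequent in every AFNCM Type than in any NFNCM Type. They were 30 of 160 wells in AFNCM1 (18.8%, 13.0 to 25.7), 29 of 193 in AFNCM2 (15.03%, 10.3 to 20.9) and 39 of 186 in AFNCM3 (21.0%, 15.4 to 27.5). In the co-culture with neonatal fibroblasts they were 22 of 188 wells in NFNCM1 (11.7%, 7.48 to 17.2), 18 of 169 in NFNCM2 (10.7%, 6.44 to 16.3) and 6 of 176 in NFNCM3 (3.41%, 1.26 to 7.27). The Types did not overlap, but the intervals of all 3 AFNCM Types overlapped those of NFNCM1 and NFNCM2 and not that of NFNCM3. Summed over Types, the shares were 18.2% of 539 AFNCM wells and 8.63% of 533 NFNCM wells.

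The marker rule did not take up fibroblasts of both ages equally. On the fibroblast chip it passed 96.1% of the kept AF1 wells and 99.1% of the AF2 wells, but 75.4% of the NF1 wells and 78.7% of the NF2 wells. Tnnt2, which encodes cardiac troponin T, carried much of this difference: its level in the NF wells that passed was 795 UMIs per 1000000 UMIs of the group (CPM), against 50.3 CPM in the AF wells. The 6 fibroblast genes also summed lower in these NF wells, at 2857 CPM against 7653 CPM in AF wells. Their median cardiomyocyte sum was 740 CPM, against 2006 CPM in NFNCM fibroblast-like wells. The share of neonatal fibroblasts that the rule passes on the cardiomyocyte chip was therefore not measured. Without Tnnt2 in the cardiomyocyte sum, an alternative chosen after seeing the data, 97.7% and 100% of the AF Types and 92.2% and 92.6% of the NF Types passed. Under that rule the fibroblast-like share was 22.5%, 19.7% and 23.1% in the AFNCM Types and 19.1%, 14.2% and 8.52% in the NFNCM Types. The order of the Types was kept, but AFNCM2 and NFNCM1 came closer, at 19.7% and 19.1% in place of 15.03% and 11.7%. The intervals of these 2 Types overlapped under both rules. Different numbers of fibroblasts per imCM were plated with AF and NF according to the methods of the study, and the part of that in the shares was not tested.

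**Figure D1:**
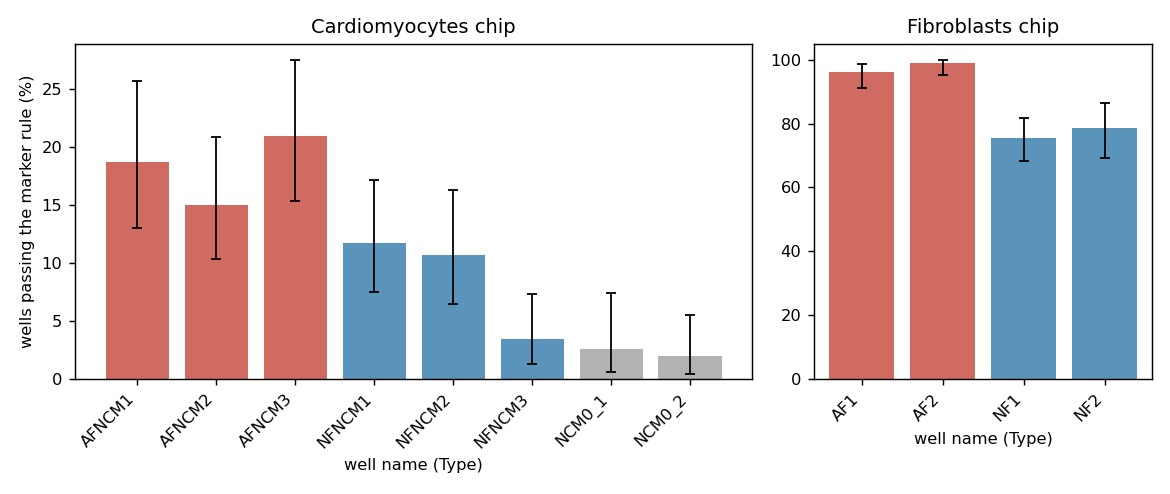
Share of wells (percent) that passed the marker rule, by Type, on the cardiomyocytes chip (left) and the fibroblasts chip (right, a different vertical range); bars start at 0 and the error bars are exact 95% binomial intervals, which cover counting error only. The 3 AFNCM Types lie at 15.03 to 21.0% and the 3 NFNCM Types at 3.41 to 11.7%, and on the other chip NF1 and NF2 pass less often than AF1 and AF2.

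The rule set a cut in a continuous range of wells. The median of the fibroblast sum over the cardiomyocyte sum was 2.57 and the highest 14.1. No fibroblast-like well had 0 cardiomyocyte UMIs, and the lowest fibroblast sum was 7 UMIs. Just inside the cut, an NFNCM2 well held 23 fibroblast against 22 cardiomyocyte UMIs and an NFNCM3 well 152 against 145. Just outside it, an NFNCM1 well held 73 of each and an AFNCM1 well 262 against 278. Within 1.5-fold of the cut lay 23 wells inside and 25 outside.

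Fibroblast-like wells were not shallower than their neighbours. Their median was 26062 UMIs (891 to 170488) and 3826 genes, against 18730 UMIs in the other wells of the co-cultures, and mitochondrial transcripts made up a median 11.1% of UMIs against 22.9%. The chip's 5 negative-control wells had a median of 145 UMIs, and none passed the rule.

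**Figure D2:**
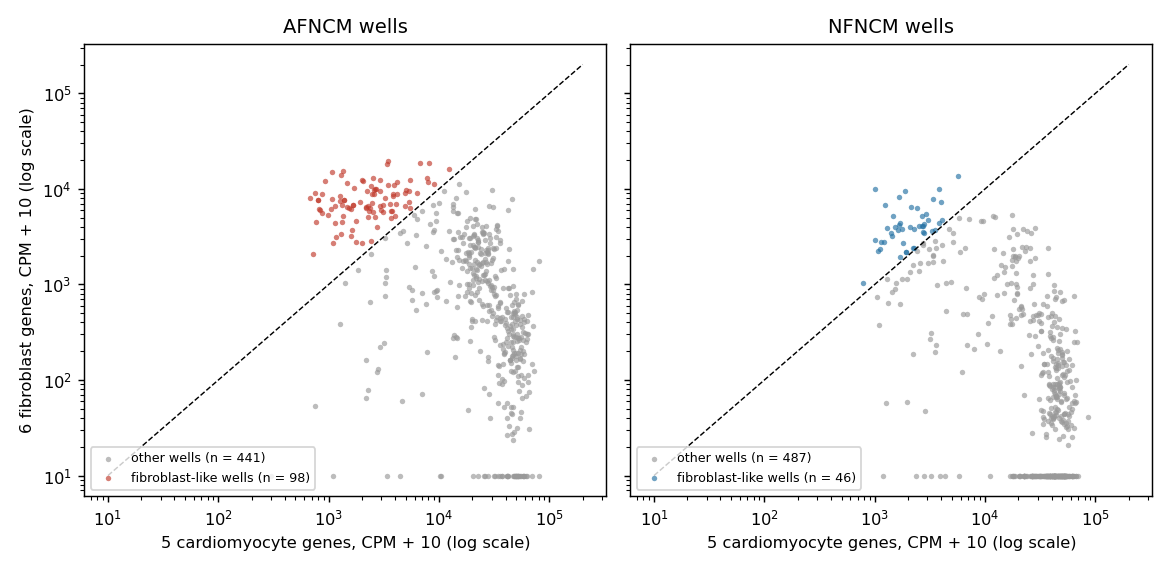
Summed fibroblast genes against summed cardiomyocyte genes in each kept well of the AFNCM Types (left) and the NFNCM Types (right), both as CPM + 10 on log scales, with the dashed line where the CPM values are equal. Fibroblast-like wells (coloured) lie above the line, with a median cardiomyocyte sum of 2303 CPM in AFNCM and 2006 CPM in NFNCM, far to the left of the main mass of other wells.

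The label was checked on the levels of 17 fibroblast markers that the rule did not use. All 17 were detected in the fibroblast-like wells, but the other wells held such transcripts too, so detection alone is no check. The levels of these markers were 119 to 733% of those in the other wells for AFNCM and 129 to 5276% for NFNCM. Their summed level was 10823 CPM in AFNCM fibroblast-like wells and 13674 CPM in NFNCM ones, close to the 11204 CPM of AF wells and 11635 CPM of NF wells, whereas the other wells held 4147 and 3574 CPM. Fstl1, a secreted glycoprotein of mesenchymal cells, was at 1454 CPM in the AFNCM group and 1429 CPM in the NFNCM group. Tcf21, the transcription factor of the cardiac fibroblast lineage, was at 43.4 and 59.4 CPM, and Pdgfra, the platelet-derived growth factor receptor that marks these cells, was at 67.9 and 57.4 CPM. With each well thinned to 2000 UMIs, the median well held 22 UMIs of these 17 genes in AFNCM fibroblast-like wells, 27.5 in NFNCM ones, 23 in AF and 24 in NF wells, and 7 and 4 in the other wells. The thinning left out 1 AFNCM and 2 NFNCM fibroblast-like wells with fewer UMIs.

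Cardiomyocyte transcripts were present in every fibroblast-like well at a small part of their level in the neighbouring wells. The 23 cardiomyocyte markers outside the rule had a median level in fibroblast-like wells of 8.51% of that in the other wells for AFNCM and 4.51% for NFNCM. Myl2, the ventricular regulatory light chain, was at 594 and 368 CPM in the fibroblast-like wells against 5718 and 6616 CPM in the other wells. Its level was 11.3 CPM in AF wells and 121 CPM in NF wells of the fibroblast chip. The part of free RNA and of wells with more than one cell in these transcripts was not tested. Doublets were not called here, and per the methods of the study wells that hold a single cell are picked from images. Xist together with Y-linked transcripts was seen in 6 of 98 AFNCM and 3 of 46 NFNCM fibroblast-like wells, against 13 of 239 AF and 11 of 200 NF wells.

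Beyond cardiomyocyte transcripts, few genes set the fibroblast-like wells of both co-cultures apart from the fibroblasts of the other chip. Of 3119 genes with at least 50 CPM, 20 were more than 2-fold higher in both comparisons, AFNCM against AF and NFNCM against NF (0.641% of genes tested), and 25 were more than 2-fold lower (0.802%). Of the 20 higher genes, 12 were higher still in the other wells of both co-cultures, and 8 were cardiomyocyte markers. These 8 were the mitochondrial subunits Cox7a1, Cox8b and Cox6a2, the oxygen store Mb, the light chains Myl2 and Myl3, the calcium pump regulator Pln and the sarcomere scaffold Ttn.

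Among the genes of the rule, the fibroblast-like wells differed strongly in their mix. Dcn, which encodes decorin (chromosome 10, 97479500 to 97518163 in GRCm38), was at 1647, 1145 and 1684 CPM in the AFNCM Types and at 145, 118 and 286 CPM in the NFNCM Types. Its level in the fibroblast chip was 1406 CPM in AF wells and 110 CPM in NF wells. Lum, the related proteoglycan lumican, was at 214 CPM (AFNCM) and 10.4 CPM (NFNCM), although 37% of the AFNCM UMIs came from 1 well. Col3a1, the type III collagen chain, was at 844 and 168 CPM, Col1a1 at 2884 and 1433 CPM and Col1a2 at 1670 and 1087 CPM. Postn, which encodes the matricellular protein periostin, went the other way, at 452, 489 and 463 CPM in AFNCM and 1205, 1294 and 1041 CPM in NFNCM.

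Over all genes, AFNCM and NFNCM fibroblast-like wells were compared on summed UMIs, 3591581 and 1446808 in total. Of 3721 genes tested, 259 were more than 2-fold higher in the AFNCM wells with no overlap between Types (6.96%), and 69 were lower (1.85%). The rule asked for 50 CPM on the higher side and left out the 11 genes that chose the wells. At 50 CPM a gene had fewer UMIs in the NFNCM group than in the AFNCM group, so the directions did not face an equal threshold. A lower gene also needed NFNCM3, with 6 wells and 146957 UMIs, above every AFNCM Type. Without NFNCM1, NFNCM2 or NFNCM3, 350, 341 and 315 genes were higher and 140, 140 and 128 lower. With each well thinned to 2000 UMIs, 368 genes were higher and 357 lower, so the split between directions was not kept. That setting had 99 AFNCM and 37 NFNCM wells, and only 2 NFNCM Types entered the rule of no overlap. There too, 50 CPM was fewer UMIs in the NFNCM group than in the AFNCM group. The directions were thus not held to an equal threshold, and the change of the split cannot be read as a result. Among the 259 higher genes, 129 were also more than 2-fold higher in AF than in NF wells of the other chip and 229 had the same sign there. Among the 69 lower genes, 21 were more than 2-fold lower there and 50 had the same sign. In the other wells of the co-cultures, 107 of the 259 higher genes and 4 of the 69 lower genes passed 2-fold in the same direction. The shares of all tested genes that did the same on the fibroblast chip or in the other wells are not given here, so these counts are a description only.

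The genes with the largest excess in AFNCM fibroblast-like wells were of several kinds. Lcn2, the iron-carrier-binding protein lipocalin 2 (chromosome 2, 32384637 to 32387739), was at 249, 148 and 260 CPM in the AFNCM Types and at 2.90, 1.64 and 0 CPM in the NFNCM Types. The log2 ratio of Lcn2 was 6.77 (95% counting interval 5.22 to 9.05), and its level in AF and NF wells was 400 and 1.46 CPM. Sod3, the extracellular superoxide dismutase, was at 109, 88.6 and 112 CPM against 1.45, 0 and 0 CPM. The secreted chaperone clusterin, Clu, was at 804 CPM against 15.2 CPM, and its level in the other AFNCM wells was higher still, at 1813 CPM. Saa3, an acute-phase serum amyloid protein, was at 55.4 against 0.691 CPM, while AF wells of the other chip held 1290 CPM. Slfn2 and Hp, the haemoglobin-binding protein haptoglobin, were at 50.7 and 81.3 CPM against 0.691 CPM each, which was 1 UMI.

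Single wells carried some of the largest ratios. Spp1, which encodes osteopontin, was at 2659, 188 and 280 CPM in the AFNCM Types and at most 6.80 CPM in an NFNCM Type, but 80% of its AFNCM UMIs came from 1 well. For the neuropeptide precursor Penk this was 99%, and for the transcription factor Lhx6 77%. In thinned wells the log2 ratio was -0.0049 for Penk and -0.42 for Lhx6. A group with 0 UMIs was given a floor level in such ratios. That floor can set both values, so they cannot show a change of direction. In all, 8 of the 259 higher genes and 0 of the 69 lower genes had more than 50% of their UMIs in 1 well. When each gene was compared without its highest well in each group, 198 of the higher and 47 of the lower genes kept their place.

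The genes lower in AFNCM fibroblast-like wells, that is higher in those cultured with neonatal fibroblasts, included surface and secreted proteins. Thy1, a surface glycoprotein of fibroblasts (chromosome 9, 44043384 to 44048579), was at 22.9, 62.1 and 54.8 CPM in AFNCM and 270, 354 and 286 CPM in NFNCM, a log2 ratio of -2.68 (-2.94 to -2.42). S100a4, a calcium-binding protein known as fibroblast-specific protein, was at 170, 213 and 175 CPM against 1117, 981 and 708 CPM. Both genes stood in the same order on the fibroblast chip, with Thy1 at 60.1 CPM in AF and 279 CPM in NF wells and S100a4 at 339 and 909 CPM. Csf1, the growth factor of macrophages, was at 411, 506 and 413 CPM against 1004, 1353 and 1327 CPM. Lama2, the laminin chain of muscle basement membrane, was at 7.80 against 51.1 CPM, and Cemip, which takes part in hyaluronan breakdown, was at 17.5 against 133 CPM.

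Tnfrsf11b, which encodes the decoy receptor osteoprotegerin, had the lowest ratio. Its level was 1.99, 7.13 and 3.12 CPM in the AFNCM Types and 84.1, 59.0 and 13.6 CPM in the NFNCM Types, a log2 ratio of -4.09 (-5.01 to -3.27). On the fibroblast chip its level was 15.9 CPM in AF and 11.2 CPM in NF wells, so the order there was not the same. Sprr1a, a small proline-rich protein, was at 28.9, 55.0 and 118 CPM against 1028, 124 and 408 CPM, and the Types AFNCM3 and NFNCM2 nearly met. Its log2 ratio of -2.95 turned to 1.15 where only wells with a fibroblast sum over 4 times the cardiomyocyte sum were taken, which left 4 NFNCM wells.

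**Figure D3:**
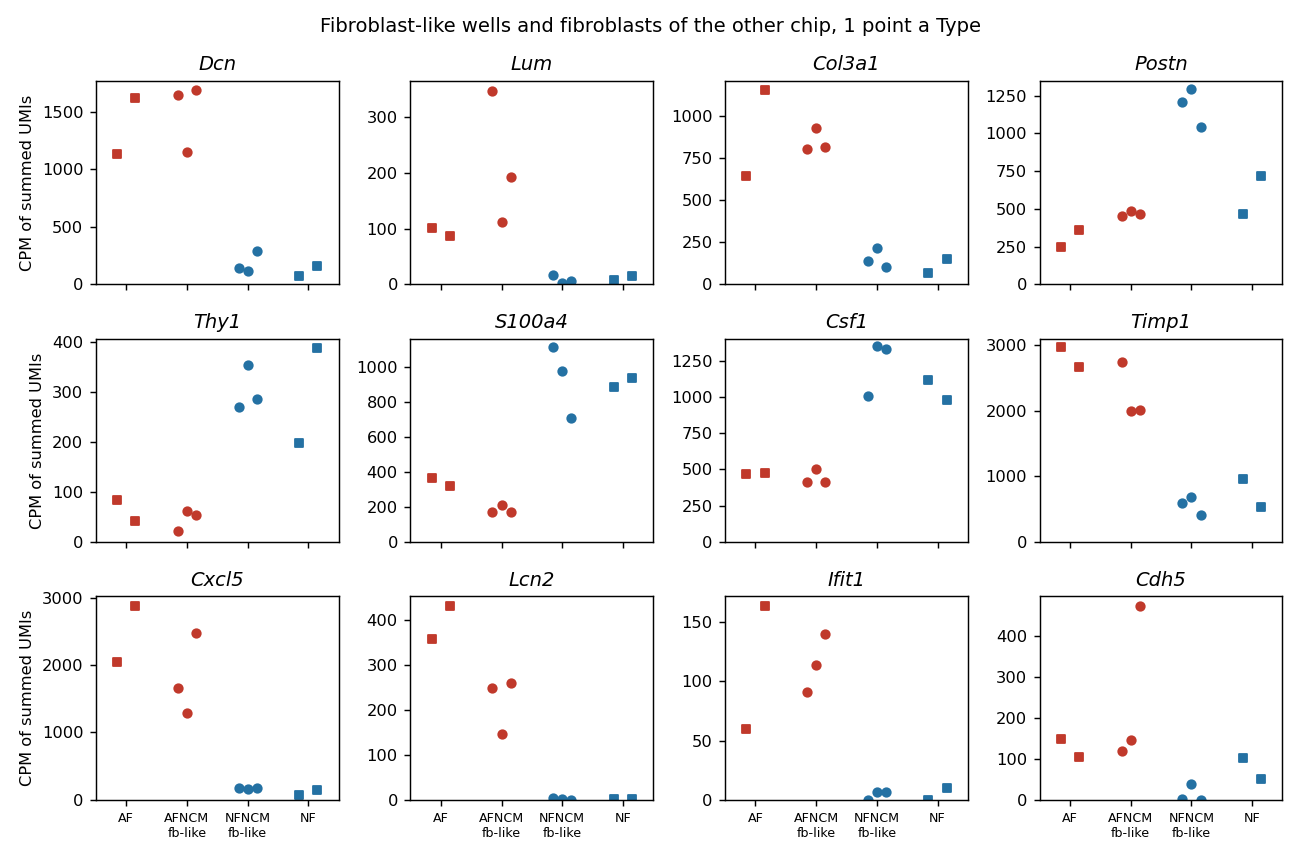
Level of 12 genes (CPM of summed UMIs, linear axes from 0, a different range in each panel) with 1 point for each Type: AF and NF fibroblasts of the other chip as squares, AFNCM and NFNCM fibroblast-like wells as circles. Dcn, Lum, Col3a1, Timp1, Cxcl5, Lcn2, Ifit1 and Cdh5 are higher in all 3 AFNCM Types, and Postn, Thy1, S100a4 and Csf1 are higher in all 3 NFNCM Types.

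By function, the most uniform group was the interferon-response list, whose products restrict viruses and carry interferon signals. Of its 15 genes, 10 were tested and all 10 passed the fold rule as higher in AFNCM, with a median log2 ratio of 4.89 against 0.0089 over all 3721 genes. The whole list summed to 134 CPM in NFNCM fibroblast-like wells, so few of its genes could reach 50 CPM there. Most of the 10 were tested through their AFNCM level, which largely fixed that count and median. Without that filter, all 15 genes of the list were more than 2-fold higher in AFNCM. The summed level of the list was 1170, 1196 and 1495 CPM in the AFNCM Types and 151, 129 and 74.9 CPM in the NFNCM Types. Ifit1, an antiviral protein that binds foreign RNA, was at 90.6, 114 and 140 CPM against 0, 6.55 and 6.80 CPM. Bst2, which tethers budding virus, was at 78.8 against 4.84 CPM. Ifi44 was at 106 CPM in AFNCM and had 0 UMIs in the NFNCM fibroblast-like wells, at least 51.3-fold higher with the floor set at 3 counts over the group. The sizes of these ratios changed under some alternatives. One took only wells with a fibroblast sum over 4 times the cardiomyocyte sum, which left 4 NFNCM wells. There the log2 ratio of Bst2 was 1.86 in place of 4.03, that of Ifi44 1.81 in place of 5.68, that of Oasl2 1.78 in place of 6.66 and that of Ly6e 0.12 in place of 1.60. For Ifi44, with 0 NFNCM UMIs, the smaller value is set against the same floor of 3 counts over fewer UMIs. It does not show a smaller difference, and the same holds for any of these genes with 0 UMIs in the 4 wells. In wells thinned to 2000 UMIs, the log2 ratio of Oasl2 was 0.17 and that of Gbp2 was -0.42 in place of 4.67. With 99 AFNCM and 37 NFNCM wells there, the floor for a group with 0 UMIs was higher in CPM in the NFNCM group. That floor can set both values, so they cannot show a change of direction.

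Interferon-response transcripts were not particular to the fibroblast-like wells of the AF co-culture. The list summed to 1457 CPM in AF wells and 95.5 CPM in NF wells of the other chip, and to 893 and 43.1 CPM in the other wells of AFNCM and NFNCM. The median well held 1111 CPM in AFNCM fibroblast-like, 1052 CPM in AF and 684 CPM in other AFNCM wells, against 26.4 CPM in NFNCM fibroblast-like wells and 0 CPM in NF and other NFNCM wells. In wells thinned to 2000 UMIs, 21 of 97 AFNCM and 39 of 44 NFNCM fibroblast-like wells had no UMI of the list.

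Inflammatory mediators were divided. Of 12 genes, 9 were tested, 4 were higher in AFNCM fibroblast-like wells and 0 were lower, with a median log2 ratio of 0.88. The 4 were Lcn2, Saa3, the neutrophil chemokine Cxcl5 at 1655, 1281 and 2483 CPM against 168, 164 and 170 CPM, and the cytokine Il6 at 193 against 7.60 CPM. Ccl2, the monocyte chemokine and one of the most abundant transcripts of these wells, was at 17512 and 20041 CPM and passed in neither direction. Immediate early genes, which respond within minutes to stimulation and to cell dissociation, were higher for 5 of 11 tested, Atf3, Dusp1, Fos, Fosb and Jun, with a median log2 ratio of 1.11. The other wells of AFNCM and NFNCM held 1411 and 799 CPM of that list, close to the 1509 and 750 CPM of the fibroblast-like wells.

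Matrix genes did not pass as a block. Of 15 collagen chains outside the rule, 10 were tested, 0 were higher and 3 were lower in AFNCM fibroblast-like wells, with a median log2 ratio of -0.71. The 3 were Col14a1 at 50.1 against 139 CPM, Col16a1 at 32.3 against 80.9 CPM and Col8a1 at 157 against 335 CPM. The basement membrane chain Col4a1 was at 1112 against 2070 CPM and did not pass 2-fold. Of 11 tested matrix glycoproteins and proteoglycans, 0 passed in either direction and the median was 0.12. Fn1, fibronectin, was at 2142 and 3218 CPM and Sparc, a collagen-binding glycoprotein, at 2202 and 2067 CPM. Mgp, an inhibitor of calcification, was at 4938 and 1664 CPM, with 49% of the AFNCM UMIs in 1 well.

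Among enzymes that process matrix and their inhibitors, 14 were tested, 3 were higher in AFNCM fibroblast-like wells and 0 were lower, with a median of -0.01. Timp1, a metalloproteinase inhibitor (chromosome X, 20870166 to 20874737), was at 2736, 1992 and 2015 CPM against 599, 685 and 415 CPM. Mmp3, the metalloproteinase stromelysin, was at 145, 248 and 431 CPM against 0, 14.7 and 0 CPM, and Timp3, an inhibitor bound to matrix, was at 75.2 against 10.4 CPM. Of the marker list outside the rule, Thy1 was lower and Serpinf1, an anti-angiogenic secreted protein, was higher, at 128 against 18.0 CPM. The median log2 ratio of those 17 markers was -0.16.

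Contractile genes of activated fibroblasts were near equal for the most abundant member. Acta2, the smooth muscle actin by which myofibroblasts are recognised, was at 1310 and 1344 CPM and Tagln at 665 and 618 CPM. Of 8 tested, 2 were higher, Actg2 at 93.3 against 11.1 CPM and Myl9 at 250 against 104 CPM, and the median log2 ratio was 0.62. Of 18 tested cell cycle genes, 2 were higher, the mitotic kinase Plk1 at 65.2 against 11.8 CPM and the thymidylate synthase Tyms at 273 against 95.4 CPM. Mki67, the proliferation marker, was at 290 and 238 CPM and Top2a at 382 and 261 CPM. The 6 wells of NFNCM3 stood apart here, with 211 CPM of the cell cycle list against 2892 and 2118 CPM in the other NFNCM Types and 2544 to 3406 CPM in the AFNCM Types.

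Secreted factors that act on neighbouring cells differed one by one. Of the 5 ligands that the study named, Dcn was part of the rule, Cxcl12 and Pgf were higher in AFNCM fibroblast-like wells, Lama2 was lower and Lamc1 passed in neither direction, at 98.3 and 82.2 CPM. Cxcl12, the chemokine of the receptor CXCR4, was at 214, 245 and 361 CPM against 167, 70.4 and 13.6 CPM, and Pgf, the placental growth factor, at 54.3 against 2.07 CPM. The study chose these ligands partly on these samples, so the count is not independent evidence. Of 6 tested growth factors, Mdk, Pdgfa and Vegfa were higher and Csf1 was lower. The heparin-binding factor midkine, Mdk, was the most even, at 163, 164 and 170 CPM against 21.8, 19.7 and 20.4 CPM.

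Endothelial transcripts moved with the same comparison. Of 12 endothelial genes, 5 were tested and all 5 were higher in AFNCM fibroblast-like wells, and the summed list was at 648, 854 and 1018 CPM in the AFNCM Types against 113, 170 and 272 CPM in the NFNCM Types. Cdh5, Emcn, Egfl7 and Esam were at 17.3, 4.84, 11.1 and 1.38 CPM in the NFNCM wells, so they were tested only through their AFNCM level. Of all 12 genes, 9 were more than 2-fold higher in AFNCM and 0 more than 2-fold lower. Cdh5, the vascular endothelial cadherin (chromosome 8, 104101613 to 104144504), was at 119, 146 and 474 CPM against 1.45, 39.3 and 0 CPM. The signal sat in few wells: 15 of 98 AFNCM fibroblast-like wells (15.3%, 8.83 to 24.0), 5 in each Type, had more than 1500 CPM of the list, and 0 of 46 NFNCM ones did, which allows up to 7.71%. The cut was set after seeing the values, at a gap between 1055 and 1773 CPM. On the fibroblast chip 19 of 239 AF and 12 of 200 NF wells were above it, and in the other wells 40 of 441 AFNCM and 12 of 487 NFNCM wells.

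Without these 15 wells, 0 endothelial genes passed, the level of Cdh5 in AFNCM fibroblast-like wells was 4.61 CPM in place of 285 CPM, and Pgf no longer passed, at 21.3 CPM. In thinned wells the log2 ratio of Pgf was -0.20, a value that the floor for a group with 0 UMIs can set. Of the 259 higher and 69 lower genes, 195 and 61 kept their place, and 11 interferon-response genes passed. Macrophage transcripts were higher in AFNCM fibroblast-like wells too, with a summed list of 110 against 22.1 CPM, but lower than in the other wells, at 597 and 872 CPM. Of the 12 macrophage markers, 6 were more than 2-fold higher, and only the lysozyme gene Lyz2 was abundant enough to be tested. It passed as higher, at 65.7 against 9.68 CPM (log2 ratio 2.76), with 333 and 527 CPM in the other wells, and the part of such cells in the other results was not tested. The macrophage genes C1qa and Ptprc had 0 UMIs in all fibroblast-like wells. Neither the 10 epicardial nor the 8 mural markers measured gave a gene that passed, and 0 and 2 of them were tested.

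The age of the fibroblasts was then read from genes chosen on wells outside the fibroblast-like set. Of 3546 genes tested on the fibroblast chip, 101 were more than 4-fold higher in AF than in NF wells (2.85%) and 10 were more than 4-fold lower (0.282%). All 101 adult-high genes had a positive log2 ratio in AFNCM over NFNCM fibroblast-like wells, from 0.02 to 8.79 with a median of 3.21. Of these, 92 were more than 2-fold higher and 62 passed the full rule, with 12 of the 101 in the interferon list. Over the 9 pairs of an AFNCM with an NFNCM Type the median ran from 1.60 to 2.96 (SD 0.56). The median was 1.498 with the 4 NFNCM and 36 AFNCM wells whose fibroblast sum was over 4 times the cardiomyocyte sum, and 0.70 where both the list and the ratio came from thinned wells.

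**Figure D4:**
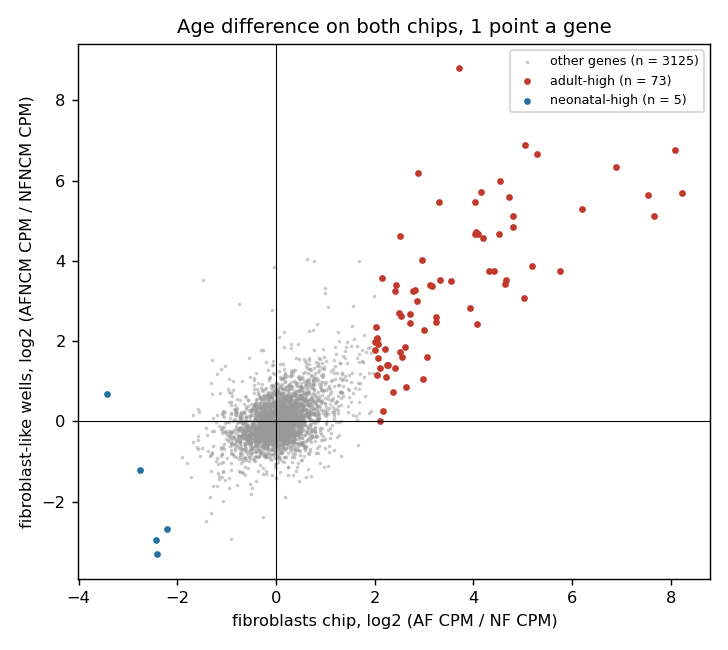
Each point is 1 gene tested on both chips: the log2 ratio of AF over NF wells on the fibroblasts chip (horizontal) against that of AFNCM over NFNCM fibroblast-like wells (vertical). The adult-high genes (log2 over 2 on the horizontal axis) all lie above 0 on the vertical axis, and the few neonatal-high genes lie on both sides of 0.

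The 101 genes were also found in the other AFNCM wells, at 9552 CPM against 17670 CPM in the fibroblast-like ones and 2723 CPM in the other NFNCM wells, and which cells made these transcripts was not tested. The list was therefore cut to 60 genes outside the interferon list whose level in the other AFNCM wells was below 1 part in 3 of the level in AF wells, a choice made after seeing the data. Of these 60, 53 were more than 2-fold higher in AFNCM than in NFNCM fibroblast-like wells, with a median log2 ratio of 3.15.

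Well by well, the 60 genes summed to a median of 6158 CPM (1689 to 21103) in the 98 AFNCM fibroblast-like wells, against 7581 CPM in AF wells and 1232 CPM in the other AFNCM wells. The low level in the other AFNCM wells was fixed by the choice of these 60 genes and is not a result. In the 46 NFNCM fibroblast-like wells the median was 828 CPM (0 to 3311), against 795 CPM in NF wells and 131 CPM in the other NFNCM wells. Of the AFNCM fibroblast-like wells, 0 were at or under the NF median and 98 were over the NF upper quartile. Of the NFNCM ones, 46 were under the AF lower quartile and 21 were at or under the NF median. Among the other wells, 212 of 441 AFNCM and 39 of 487 NFNCM wells were also over the NF upper quartile of the 60 genes. For all 101 adult-high genes these counts were 435 and 153, so a level over that of NF wells was not particular to fibroblast-like wells. In wells thinned to 2000 UMIs, the medians of the 60 genes were 13 UMIs in AFNCM fibroblast-like, 14 in AF, 2 in NFNCM fibroblast-like and 1 in NF wells, near the level of 1 UMI for the last groups.

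**Figure D5:**
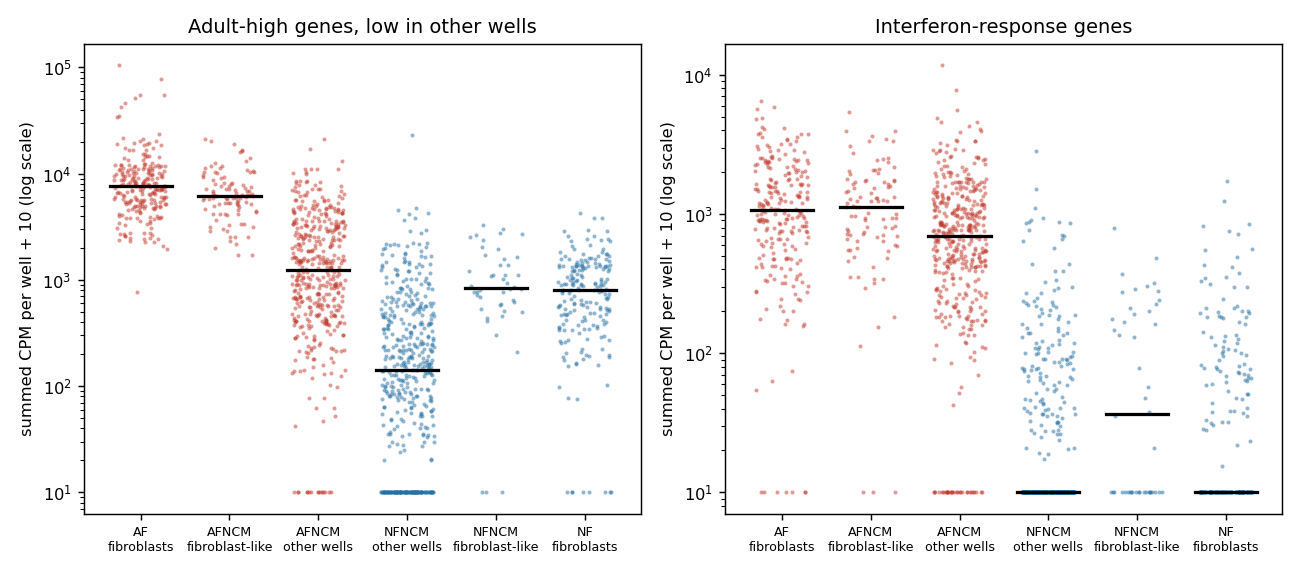
Summed CPM per well, plus 10 and on a log scale, of the 60 adult-high genes that are low in the other AFNCM wells (left) and of the 15 interferon-response genes (right), with 1 point for each well and a black bar at the median. On the left, AFNCM fibroblast-like wells (median 6158 CPM) lie beside AF wells and NFNCM fibroblast-like wells (828 CPM) beside NF wells. The other AFNCM wells are low on the left by the choice of the genes, and on the right, where no such choice was made, they are high too.

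Neonatal-high genes gave no stable direction in the fibroblast-like wells. The median log2 ratio of the 10 genes was -1.07, and 4 of the 10 were more than 2-fold lower in AFNCM than in NFNCM fibroblast-like wells. Of these, Thy1 and Sprr1a passed the full rule, while Fdps, an enzyme of sterol synthesis, was at 44.0 and 43.5 CPM. The 10 genes include the cardiomyocyte marker Myl2. They summed to 6617 and 7142 CPM in the other wells of AFNCM and NFNCM, against 1610 CPM in NF wells. The part of cardiomyocyte transcripts in the median was not tested. The sign turned in alternatives that also chose the list again: the median was 0.29 over 9 genes with the mean of the wells' own CPM, 0.17 over 22 genes with thinned wells, and 0.012 over 18 genes with all kept wells of the other chip, the last added after seeing the data.

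Bulk RNA-seq of the cardiomyocyte fraction came from libraries that the rule did not use, 2 for imCM-NF (9278909 and 12088577 counts) and 2 for imCM-AF (10766124 and 11790263 counts). Whether they held the same mixture of cells as the chip was not tested. Cdh5 was at 354 and 368 CPM in bulk imCM-NF, against 17.3 CPM in NFNCM fibroblast-like wells. The whole endothelial list was at 137 CPM in the other NFNCM wells. In bulk RNA, fewer cells of a type and less RNA per cell cannot be told apart, and the labels do not say whether the replicates were separate cultures. Of 14041 genes tested with edgeR's quasi-likelihood test, 864 were higher in imCM-AF (6.15%) and 700 were lower (4.99%) at an adjusted p under 0.05 and a log2 fold change over 0.58.

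Of the 15 interferon-response genes, 14 rose in imCM-AF and 0 fell, with a median log2 fold change of 1.39. The replicates of Ifit1 did not overlap, with 103 and 55.8 CPM for imCM-NF against 290.2 and 335 CPM for imCM-AF (log2 fold change 1.99, SE 0.18, edgeR adjusted p = 8.0e-07). Of the 96 adult-high genes tested, 50 rose and 6 fell. Serpinf1 rose from 45.5 and 58.1 CPM to 146 and 124 CPM (log2 fold change 1.38, edgeR adjusted p = 3.3e-07).

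Some fibroblast genes fell in bulk imCM-AF. Of 6 rule genes, 0 rose and 3 fell: Postn from 1177 and 1417 CPM to 390.4 and 318 CPM (log2 fold change -1.87, SE 0.15, edgeR adjusted p = 1.6e-07), Col1a1 (log2 fold change -0.76, adjusted p = 0.014) and Col1a2 (log2 fold change -0.72, adjusted p = 0.0089). Dcn did not pass, with 732 and 762 CPM for imCM-NF against 628 and 633 CPM for imCM-AF (log2 fold change -0.25, edgeR adjusted p = 0.14). Col3a1 and Lum were below the fold threshold (log2 fold changes -0.53 and -0.48, edgeR adjusted p = 0.025 and 0.0014). Of 15 collagen chains outside the rule, 12 fell and 0 rose, and Col8a1 and Col12a1 had log2 fold changes of 0.30 and 0.21 that did not pass. Of 17 fibroblast markers outside the rule 2 rose and 9 fell, Thy1 among them (log2 fold change -1.70, edgeR adjusted p = 1.6e-07). All 12 endothelial genes were tested in bulk, where 0 rose and 6 fell, Cdh5 from 354 and 368 CPM to 216 and 214 CPM.

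Most genes that separated the fibroblast-like wells by co-culture passed in neither direction in bulk. Of 251 tested genes higher in AFNCM fibroblast-like wells, 48 rose and 22 fell, and of 65 lower ones 3 rose and 9 fell. Over all 14041 genes tested in bulk, 6.15% rose and 4.99% fell. Tnfrsf11b and Cemip, both lower in AFNCM fibroblast-like wells, rose in bulk (log2 fold changes 1.34 and 0.63, edgeR adjusted p = 3.8e-04 and 8.3e-04).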

How the data were processed

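Per the labels and the study's methods, the authors made the single-cell UMI counts from nanowell libraries and deposited a raw table of UMI counts by gene and well beside a report naming the Type of each well. They deposited the bulk data as raw read counts per gene. The submitters' processing notes name the mm10 build, featureCounts, Subread 1.4.6-p1 and STAR 2.5.2b, with no role or order. The deposited bulk table of fold changes was not used, since its columns hold the authors' own comparison, and 0 sample columns were left unmapped.

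Wells with 500 or more non-mitochondrial genes were kept, and spike-in columns and the 34 mitochondrial genes were left out of totals and tests. Gene symbols were matched for 27552 of 28085 and 27856 of 28394 identifiers on the cardiomyocyte and fibroblast chips. The study itself kept only cells whose sort and cluster matched; the wells described here are those that did not follow the sort by marker sums. UMIs were summed over the wells of a group or Type and scaled to CPM. A gene passed when its log2 ratio was over 1 in size, the higher side had at least 50 CPM and the AFNCM Types with 5 or more such wells did not overlap the NFNCM Types. Log2 ratios were set against a floor of 3 counts over the group where a group had 0 UMIs. Intervals are exact Poisson, binomial (Clopper-Pearson) or conditional binomial intervals at 95% and cover counting error only. Genes are named by fixed lists, the 15 largest rises and falls between co-cultures, and the 10 largest against the other chip and between AF and NF wells. The fibroblast-like wells, the gene lists and the cuts were chosen with earlier results of these data known.

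Bulk counts were fitted with edgeR 4.0.16 (quasi-likelihood, TMM, Benjamini-Hochberg) on genes over 1 CPM in at least 2 libraries, called at an adjusted p under 0.05 and a log2 fold change over 0.58. Alternatives used DESeq2 1.42.0 and limma 3.58.1. Within a group, bulk replicates differed by more than sampling noise (chi-square per gene 8.60 and 8.42). The scripts were tested on simulated data. Gene coordinates are from the RefSeq table for GRCm38. Python 3.11.15 and R 4.3.3 were used.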

Additional observations from a re-analysis of the deposited data

Results flagged for a closer look

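Wells named NCM0, a Type that the labels do not explain and that no comparison used, also held cells that passed the marker rule: 6 of 272 wells, or 2.21% (exact 95% binomial interval 0.814 to 4.74). They were 3 of 116 wells in NCM0_1 and 3 of 156 in NCM0_2. These 6 wells had a median of 21942 UMIs and a median fibroblast sum of 7003 CPM, against 441 CPM in the other NCM0 wells. Their share was below that of each AFNCM Type, NFNCM1 and NFNCM2, whose intervals start at 6.44% or higher, and within the interval of NFNCM3.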

How the results depend on the processing

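The share of fibroblast-like wells was 9.14% when the fibroblast sum had to be over 2 times the cardiomyocyte sum, 3.73% at 4 times and 17.9% without Tnnt2. It was 11.9 to 15.4% when 1 Type was left out, and 12.2% without Postn and Lum (18.2% in AFNCM, 6.19% in NFNCM). AFNCM stayed above NFNCM in each. The fibroblast sum was lower in NF than in AF wells, so a stricter margin takes out neonatal wells first and that order is no independent support. Genes past 2-fold between co-cultures, 328 in all, numbered 596 at a log2 ratio over 0.58, 116 at over 2, 149 at 100 CPM and 391 to 490 without 1 Type. In wells thinned to 2000 UMIs they numbered 725, and the share of higher calls went from 79.0% to 50.8%. There the rule of no overlap held 2 NFNCM Types in place of 3, and 50 CPM was fewer UMIs in the NFNCM group, as under the main rule. Only 4 NFNCM wells passed at 4 times, so that setting gave no count between co-cultures. Against the other chip, the 45 genes became 102 at 4 times, 91 thinned, 20 at 100 CPM and 44 to 59 without 1 Type.

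The adult-high median of 3.21 was 1.498 at 4 times, 0.70 thinned, where the list was chosen again from thinned wells and held 132 genes, and 2.63 to 3.18 without 1 Type, lowest without AF1. The neonatal-high median of -1.07 turned to 0.17 thinned, 0.29 with the mean of the wells' own CPM and 0.012 with all kept wells of the other chip, and was -1.59 to -0.43 without 1 Type. The causes were not tested.

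The log2 ratio of single genes changed sign at 4 times (Avl9 0.57, H19 -1.54, Lhx6 -1.13, Sprr1a 1.15, Trmt10a 0.15). It did so when thinned for others (Actn2 -0.68, Egfl7 -0.20, Gbp2 -0.42, Lhx6 -0.42, Penk -0.0049, Pgf -0.20). The floor for a group with 0 UMIs can set such signs where few UMIs are left, so they cannot show a change of direction. Without the endothelial-high wells the sign changed for Cdh5 (-1.91), Ecscr (-0.15), Egfl7 (-0.055) and Emcn (-1.45). Alternatives on the wells of high endothelial sum, Tnnt2, single wells, all kept wells of the other chip and the genes of the rule were added after seeing the data.

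In bulk, 1564 genes were called, 3789 by adjusted p alone, 1078 with DESeq2, 1566 with limma-voom, and 879 to 1929 without 1 library, the lowest when the second imCM-NF library was left out, and 988 when the second imCM-AF library was. The replicate block gave 1430 calls, 1420 of them shared with the fit without it, but same-numbered libraries did not deviate together (correlation -0.12), so the numbers do not pair the samples. A crossed replicate block, added after seeing the data, gave 1668. With 2 libraries a group and 1 library a chip, depth limits genes under 50 CPM, for which 46 NFNCM wells give few UMIs.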

Other observations

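Of 9 imprinted growth genes, 3 were tested between the fibroblast-like wells of the co-cultures, and 3 of the 9 were more than 2-fold higher and 1 more than 2-fold lower in AFNCM. Of the 3 tested, only H19, a growth-restraining imprinted RNA, passed, at 61.7, 95.7 and 36.2 CPM in the AFNCM Types and 0, 22.9 and 0 CPM in the NFNCM Types. Its AFNCM UMIs came from 16 of 98 wells, 38% of them from 1 well, and its level was 85.7 CPM in AF and 14.8 CPM in NF wells. Meg3 was at 222 and 257 CPM and Grb10 at 124 and 118 CPM.

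Interferon-response genes were high in AF wells, in AFNCM fibroblast-like wells and in the other AFNCM wells, while 193 of 272 NCM0 wells held no UMI of that list. The 15 fibroblast-like wells with a high endothelial sum had at least 8042 CPM of the 101 adult-high genes (median 12953 CPM), against a median of 16135 CPM in all AFNCM fibroblast-like wells, 8810 CPM in the other AFNCM wells and 2077 CPM in NF wells.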
